A study of Homo sapiens with 12 samples.

Results

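The ID proteins and the genes that close or carry the bone morphogenetic protein (BMP) pathway were followed as 10 genes: ID1, ID2, ID3, ID4, SMAD6, SMAD7, SMAD9, BAMBI, BMPR1A and BMPR2. They were picked by symbol out of the 22257 genes in the count tables, with 1 RefSeq transcript standing for each gene, and all 10 passed the filter on low counts that left 14416 genes. The genes were named with results of these libraries already known, and ID2 was known for its lower count with acetate. Its difference with acetate is therefore given as a description with no test, and no count over the 10 genes is read as evidence about the set.

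The cells were LN229, an established human glioblastoma line, and RNA was sequenced from 12 libraries in 3 groups of 4. All groups were grown to 80% confluence in 6-well dishes and then kept for 24 hours in RPMI medium with 10% dialyzed serum, from which small molecules have been removed. One group had 1 mM glucose alone, another the same glucose plus 5 mM acetate, and the third 10 mM glucose, so the acetate group is a low glucose group, and a 10 mM glucose group with acetate was not analysed here. Everything comes from 1 cell line at 1 time point, and nothing in the labels says that the replicates came from separate cultures. Each p therefore measures the spread between these libraries only, which may be technical. Because these are bulk samples, a change in the share of cells of one state and a change in RNA per cell cannot be told apart.

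BMP ligands bind a pair of type I and type II receptor kinases, which phosphorylate SMAD1, SMAD5 and SMAD9. These join SMAD4, enter the nucleus and switch on genes, among which ID1, ID2 and ID3 are the classic direct targets in many cell types. ID proteins have a helix-loop-helix but no DNA-binding region, so they tie up the E proteins (TCF3, TCF4 and TCF12) that drive differentiation. SMAD6, SMAD7 and BAMBI are themselves induced by the pathway and turn it down. In glioblastoma, BMP signalling is known for pushing stem-like cells towards an astrocyte-like state, and ID proteins for keeping cells undifferentiated.

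Library totals were between 24.4 M and 27.2 M counts (M stands for mega). Expression levels are TMM-scaled counts per megacount (CPM), and fold changes are log2 values from edgeR with a standard error (SE). Line markers matched glioblastoma cells in part: VIM averaged between 3768 and 5249 CPM over the 3 groups and NES, CD44, SOX2 and S100B were present, but the astrocyte marker GFAP averaged between 0.848 and 1.14 CPM. The summed level of the 8 line markers ran from 6454 to 7717 CPM at 1 mM glucose, from 6046 to 6494 CPM with acetate and from 5891 to 6006 CPM at 10 mM glucose. Most of that sum is VIM. Of the 8 markers 3 were called higher and 4 lower with glucose, beside 33.7% and 33.8% of all genes. SOX2 rose by 2.40 ± 0.06 (adjusted p = 4.9e-13), NES by 1.22 ± 0.08 and S100B by 1.10 ± 0.10. OLIG2 fell by 1.56 ± 0.08 (adjusted p = 3.72e-10), EGFR by 0.58 ± 0.22 (adjusted p = 0.0328), VIM by 0.48 ± 0.07 and CD44 by 0.47 ± 0.04. With acetate 2 were called higher and 2 lower, beside 6.65% and 7.09% of all genes. SOX2 rose by 0.30 ± 0.07 and S100B by 0.48 ± 0.10. OLIG2 fell by 0.66 ± 0.08 and VIM by 0.23 ± 0.07 (adjusted p = 0.0405). Of the 4 endothelial markers PECAM1, CDH5 and KDR averaged at most 0.362 CPM in every group. VWF averaged 0.302 CPM at 1 mM glucose, 0.940 CPM in the acetate group and 0.873 CPM in the 10 mM group, and it was called higher in both (1.52 ± 0.29 and adjusted p = 2.81e-04 for glucose, 1.62 ± 0.28 and adjusted p = 0.00187 for acetate). Of the 4 immune markers PTPRC, AIF1 and CD14 averaged at most 0.447 CPM, and CD68 58.5, 65.0 and 20.4 CPM. In the library of 1 mM replicate 3 and in that of acetate replicate 1, log2 levels relative to the mean of all libraries fell with transcript length more than elsewhere (Spearman's rho with length across genes of −0.59 and −0.57, against −0.23 to 0.30 in the other 10), and values that moved with them are also given without them. Within their groups these libraries held the highest levels of the short ID1 and ID3 transcripts and the lowest of the long BMPR2 transcript. The same rho was −0.08, 0.19, −0.59 and −0.23 in 1 mM replicates 1 to 4. With acetate it was −0.57, 0.02, 0.22 and 0.30, and at 10 mM glucose 0.24, 0.28, 0.12 and 0.19, so the trend partly followed the groups.

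ID1 and ID3 rose at 10 mM glucose and stayed near their low glucose level with acetate, ID2 was lower in both, and ID4 was lower with acetate. ID1 is a helix-loop-helix inhibitor linked to stem-like glioma cells. At 1 mM glucose its level was 29.2, 28.8, 42.9 and 32.0 CPM in replicates 1 to 4, and with acetate it was 35.0, 29.7, 27.9 and 29.4 CPM. At 10 mM glucose it was 94.2, 99.2, 103 and 94.4 CPM, so every 10 mM library lay above all 8 low glucose libraries, while the 1 mM and acetate ranges overlapped. The difference for glucose was 1.56 ± 0.11 on the log2 scale (2.94-fold; adjusted p = 1.18e-08), and for acetate it was −0.12 ± 0.11 (adjusted p = 0.5), or −0.05 without both libraries with the length trend. Of the 14416 genes tested, ID1 ranked 297th from the highest by its fold change for glucose.

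ID3, another helix-loop-helix inhibitor and direct BMP target, gave 39.6, 32.4, 49.6 and 37.6 CPM at 1 mM glucose and 52.6, 43.1, 40.1 and 42.9 CPM with acetate. At 10 mM glucose it gave 125, 126, 138 and 125 CPM, again above every low glucose library. The difference for glucose was 1.69 ± 0.11 (3.23-fold; adjusted p = 5.19e-09), and that for acetate, 0.17 ± 0.11, missed the threshold (adjusted p = 0.354). The acetate value of ID3 moved with single libraries: it was 0.29 without 1 mM replicate 3 (adjusted p = 0.04), but 0.08 without acetate replicate 1 or without 1 mM replicate 2 (adjusted p = 0.62 in each). Without both libraries with the length trend it was 0.20 (adjusted p = 0.0317), and with the length and GC trend taken out 0.24 (adjusted p = 0.00353). Over all alternatives its adjusted p ran from 0.00353 to 1.

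ID2 behaved unlike ID1 and ID3. Its level was 34.7, 29.9, 26.6 and 31.3 CPM at 1 mM glucose, 12.8, 10.8, 11.7 and 11.2 CPM with acetate, and 15.7, 15.6, 14.6 and 16.5 CPM at 10 mM glucose. The 1 mM libraries lay above all others, and the acetate libraries below all others. At 10 mM glucose it was lower by 0.97 ± 0.08 on the log2 scale (1.96-fold lower; adjusted p = 7.21e-08). This comparison uses the same 1 mM libraries as the acetate difference for which ID2 was known, so its p is not independent of that choice. With acetate the difference was −1.40 ± 0.08, which is 2.63-fold lower and the 21st lowest of the genes tested, and 10 mM glucose lay 0.42 ± 0.09 above acetate; these 2 values are a description. With any 1 library left out, or under any other alternative, the difference with acetate ran from −1.51 to −1.33.

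ID4, the ID family member tied to neural precursor cells, gave 11.2, 10.3, 10.9 and 12.8 CPM at 1 mM glucose and 11.1, 11.7, 12.5 and 11.8 CPM at 10 mM glucose. With acetate it gave 7.43, 7.25, 7.04 and 6.28 CPM, below all 8 other libraries. The difference for acetate was −0.69 ± 0.08 (1.62-fold lower; adjusted p = 1.25e-04), and 10 mM glucose lay 0.75 ± 0.08 above acetate (adjusted p = 1.84e-06). Both calls ended under a test for at least a 1.5-fold change, the one against acetate at an adjusted p of 0.0572. For glucose the value was 0.06 ± 0.08 (adjusted p = 0.53), and it passed the threshold when libraries were scaled by their totals (0.20, adjusted p = 0.0375), a scaling that moved the median of all genes by 0.14.

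**Figure D1:**
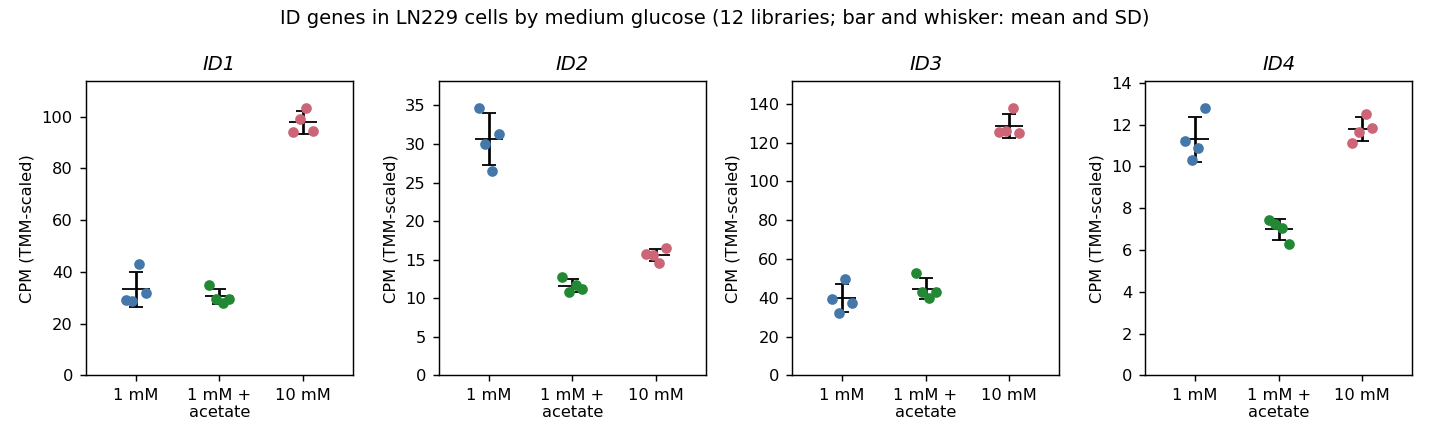
TMM-scaled counts per megacount of ID1, ID2, ID3 and ID4 (y axis, linear, from 0) in each of the 12 libraries by group (x axis), 4 points per group with the mean and SD. ID1 and ID3 are between 94.2 and 138 CPM in the 10 mM libraries, ID2 is highest at 1 mM glucose, and ID4 is lowest with acetate.

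Set per kilobase of transcript, so that the 4 genes can be compared, the make-up of the ID family differed between the groups. At 1 mM glucose ID2 made up 26.5% ± 4.58 (SD, n = 4) of the summed level. Its share was 11.9% ± 0.780 in the acetate libraries and 5.78% ± 0.497 in those at 10 mM glucose. ID3 made up 36.7% ± 2.57, 49.5% ± 0.977 and 51.8% ± 0.614, and ID1 31.2% ± 3.15, 34.4% ± 0.222 and 39.9% ± 0.534, in the same order. Because the ID2 level enters every share, these are descriptions. The ranges of the ID2 share in the 3 groups did not overlap (19.8 to 29.8%, 11.3 to 13.0% and 5.09 to 6.26%). The summed level was 86.1 ± 9.45, 72.0 ± 7.43 and 198.6 ± 7.96 CPM per kilobase, so the lower ID2 share at 10 mM glucose came with both less ID2 and more ID1 and ID3.

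**Figure D2:**
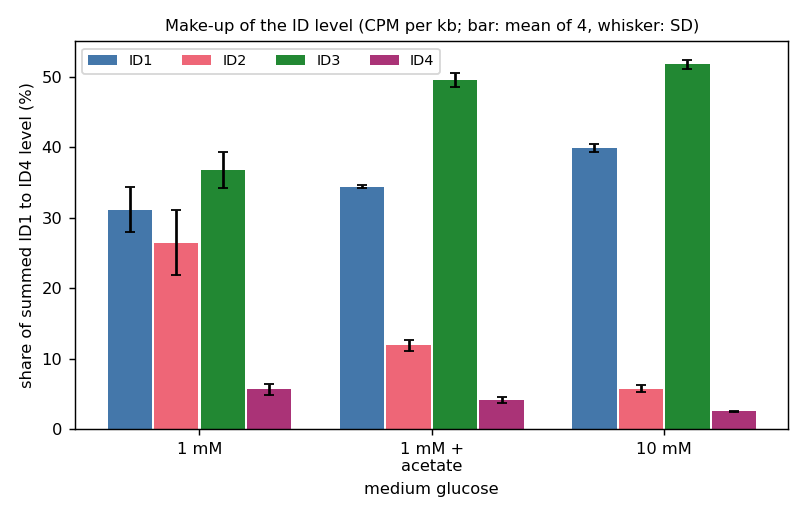
Share of the summed ID1 to ID4 level, in CPM per kilobase, held by each gene (y axis, percent) in the 3 groups (x axis), as the mean of 4 libraries with SD. The ID2 share falls from 26.5% in the 1 mM group to 11.9% in the acetate group and 5.78% in the 10 mM group.

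The stretches before the start sites of 5 genes are printed to set 4 of the 7 members that rose with glucose (ID1, ID3, SMAD6 and BAMBI, the target and feedback genes with the largest rises) beside ID2. They are the 250 bases before the start from RefSeq on GRCh38.p14, which is not the hg19 build of the counts, read 5′ to 3′ on the gene's strand. Capitals mark matches, on either strand, to any of 5 motifs, and overlapping matches are merged. The palindromic SMAD box was searched as GTCTAGAC and the shorter SMAD box as CAGAC. The GC-rich SMAD element was searched as GGCGCC and the TATA box as TATAAA. Of the E-box, which helix-loop-helix factors bind, only the form CACGTG was searched, so other forms are unmarked. ID1 lies on chr20:31605039-31605288 (plus strand), ID2 on chr2:8681806-8682055 (plus), ID3 on chr1:23559502-23559751 (minus), SMAD6 on chr15:66701986-66702235 (plus) and BAMBI on chr10:28677271-28677520 (plus).
ID1: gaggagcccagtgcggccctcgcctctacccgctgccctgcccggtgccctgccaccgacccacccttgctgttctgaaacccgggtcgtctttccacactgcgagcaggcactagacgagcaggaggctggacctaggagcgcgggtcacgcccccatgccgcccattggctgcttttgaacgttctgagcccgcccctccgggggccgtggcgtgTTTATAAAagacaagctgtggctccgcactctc
ID2: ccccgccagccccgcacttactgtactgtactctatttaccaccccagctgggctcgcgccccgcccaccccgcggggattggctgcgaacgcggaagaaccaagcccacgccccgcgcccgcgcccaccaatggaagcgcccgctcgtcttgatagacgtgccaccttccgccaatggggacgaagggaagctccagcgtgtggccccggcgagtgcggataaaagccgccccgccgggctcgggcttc
ID3: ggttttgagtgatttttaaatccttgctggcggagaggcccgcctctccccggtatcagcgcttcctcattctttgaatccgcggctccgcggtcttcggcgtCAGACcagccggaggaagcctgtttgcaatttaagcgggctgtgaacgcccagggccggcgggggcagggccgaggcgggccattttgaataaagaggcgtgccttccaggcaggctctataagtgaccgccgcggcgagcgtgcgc
SMAD6: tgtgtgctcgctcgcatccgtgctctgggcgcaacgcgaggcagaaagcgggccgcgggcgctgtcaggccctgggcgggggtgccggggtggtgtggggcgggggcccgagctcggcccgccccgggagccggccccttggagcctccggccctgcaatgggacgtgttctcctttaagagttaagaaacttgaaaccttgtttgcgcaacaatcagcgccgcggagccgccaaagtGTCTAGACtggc
BAMBI: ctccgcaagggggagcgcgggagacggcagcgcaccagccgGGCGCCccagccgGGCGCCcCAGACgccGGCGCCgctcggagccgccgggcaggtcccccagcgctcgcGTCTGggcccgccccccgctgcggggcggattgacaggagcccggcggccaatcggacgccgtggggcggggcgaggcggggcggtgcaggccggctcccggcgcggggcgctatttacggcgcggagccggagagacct
Of 35116 promoters of the same length, 0.182% hold GTCTAGAC, which SMAD6 holds 12 to 5 bases before its start, and it is the only one of the 10 genes that does. CAGAC, in 38.0% of all promoters, was found in 5 of the 10 (ID3, ID4, SMAD7, BAMBI and BMPR2), GGCGCC, in 16.4%, in BAMBI and BMPR2, CACGTG, in 6.35%, in SMAD9, and TATAAA, in 10.7%, in ID1, ID4, SMAD7 and BMPR1A. ID2 holds none of the 5 in this window, and a match is a description of letters only.

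Among the genes that turn the pathway down, BAMBI and SMAD6 rose with glucose and SMAD7 fell. BAMBI is a decoy receptor that resembles a type I receptor but has no kinase. It gave 56.8, 57.6, 76.3 and 63.7 CPM at 1 mM glucose, 72.1, 71.0, 66.4 and 63.2 CPM with acetate and 239.5, 231, 232 and 241 CPM at 10 mM glucose, all 4 of which lay above every other library. The difference for glucose was 1.89 ± 0.08 (3.71-fold; adjusted p = 7.06e-11), the largest among the 10 genes and 130th from the highest of those tested. For acetate it was 0.10 ± 0.08 (adjusted p = 0.462), and it ran from 0.05 without 1 mM replicate 1 (adjusted p = 0.76) to 0.20 without 1 mM replicate 3 (adjusted p = 0.0345). It was 0.05 without 1 mM replicate 2 (adjusted p = 0.686) and 0.17 without both libraries with the length trend (adjusted p = 0.0282), over a range of adjusted p from 0.0282 to 1.

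SMAD6, an inhibitory SMAD that competes with the receptor SMADs, was measured from few counts, 1096 over the 12 libraries. At 1 mM glucose it gave 2.44, 2.14, 2.22 and 2.28 CPM, with acetate 2.22, 2.37, 2.50 and 3.18 CPM, and at 10 mM glucose 5.96, 5.34, 5.98 and 4.88 CPM. The 10 mM libraries again lay above all others, and the difference for glucose was 1.28 ± 0.12 (2.43-fold; adjusted p = 2.53e-07), against 0.17 ± 0.13 for acetate (adjusted p = 0.423). The transcript that the authors marked for SMAD6 is a noncoding one, with a log2 ratio of means for glucose of 1.29. The coding transcripts gave 1.28 (NM_005585) and 1.43 (NM_001142861). The first of these had 1092 counts in total, and its counts equalled those of the noncoding transcript in every 1 mM and acetate library. The same reads may thus be counted for both, and their agreement is not a separate measurement of the coding form.

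SMAD7, the inhibitory SMAD that brings ubiquitin ligases to the receptors, gave 40.2, 38.5, 42.6 and 42.1 CPM at 1 mM glucose. With acetate it gave 37.6, 34.8, 36.8 and 33.4 CPM and at 10 mM glucose 29.3, 27.2, 29.7 and 28.4 CPM, so the 3 groups did not overlap and stepped down in that order. Glucose lowered it by 0.51 ± 0.06 (1.43-fold lower; adjusted p = 1.83e-06), a call that ended under a test for at least a 1.5-fold change. For acetate the value was −0.20 ± 0.06 (adjusted p = 0.0348). That call ended in 14 of 25 alternatives, with adjusted p from 0.0104 to 1, among them leaving out 1 mM replicate 1, 3 or 4, acetate replicate 2, 3 or 4, or 10 mM replicate 1 or 4 (adjusted p between 0.0503 and 0.121).

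**Figure D3:**
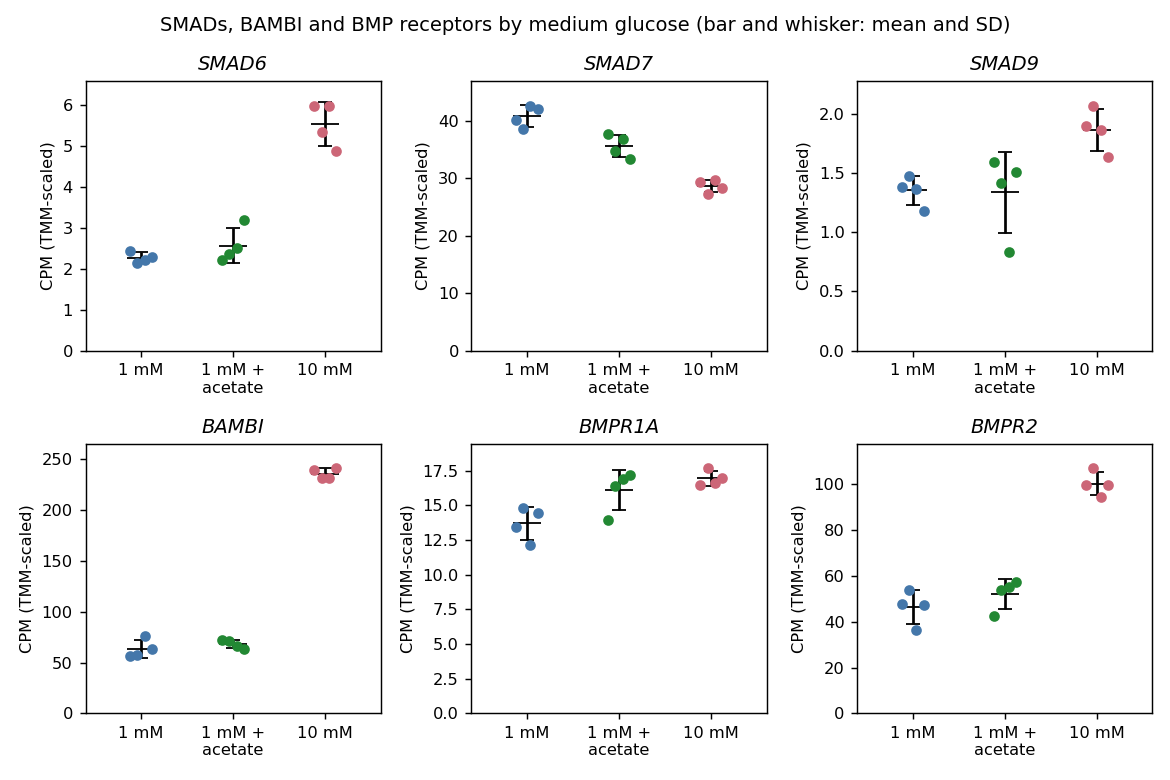
TMM-scaled counts per megacount of SMAD6, SMAD7, SMAD9, BAMBI, BMPR1A and BMPR2 (y axis, linear, from 0, one scale per gene) in each of the 12 libraries by group (x axis), 4 points per group with the mean and SD. BAMBI, SMAD6 and BMPR2 are highest in the 10 mM libraries, and SMAD7 is lowest there.

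Of the receptors, BMPR2, the type II receptor that phosphorylates type I partners, was highest at 10 mM glucose, as BAMBI was. It gave 47.8, 53.8, 36.2 and 47.4 CPM at 1 mM glucose, 42.3, 54.0, 55.0 and 57.3 CPM with acetate and 99.5, 107, 94.6 and 99.6 CPM at 10 mM glucose. The 10 mM libraries lay above all others, with a difference for glucose of 1.11 ± 0.11 (2.16-fold; adjusted p = 4.3e-07) and for acetate of 0.17 ± 0.11 (adjusted p = 0.335). The acetate value ran from 0.07 without 1 mM replicate 3 (adjusted p = 0.665) to 0.26 without acetate replicate 1 (adjusted p = 0.0736), and was 0.16 without both (adjusted p = 0.056) and 0.06 with the length and GC trend taken out (adjusted p = 0.152). BMPR1A, a type I receptor, gave between 12.1 and 14.8 CPM at 1 mM glucose, between 14.0 and 17.2 CPM with acetate and between 16.5 and 17.7 CPM at 10 mM glucose, where it lay above every 1 mM library but overlapped acetate. Its difference for glucose was 0.31 ± 0.08 (1.24-fold; adjusted p = 0.00315), a call that ended with the length and GC trend taken out (0.10, adjusted p = 0.15). For acetate the value was 0.23 ± 0.08 (adjusted p = 0.0647), and it passed without 1 mM replicate 2 (adjusted p = 0.0412), without acetate replicate 1 (0.30, adjusted p = 0.0113) and without both libraries with the length trend (0.24, adjusted p = 0.0117), over a range of adjusted p from 0.0113 to 1.

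SMAD9, a receptor SMAD that the pathway induces, gave between 1.18 and 1.48 CPM at 1 mM glucose, between 0.833 and 1.59 CPM with acetate and between 1.64 and 2.07 CPM at 10 mM glucose. The difference for glucose was 0.46 ± 0.17 (1.38-fold; adjusted p = 0.0288), and 10 mM glucose lay 0.48 ± 0.17 above acetate (adjusted p = 0.0247). Both rested on few counts, 478 over the 12 libraries. The glucose call ended without 1 mM replicate 4 or 10 mM replicate 1, 2 or 3 (adjusted p between 0.0509 and 0.0806) and with the length and GC trend taken out (adjusted p = 0.0859), over a range of adjusted p from 0.00666 to 1. The call against acetate ended without acetate replicate 3 or 10 mM replicate 2 (adjusted p between 0.0708 and 0.0946) and with the length and GC trend taken out (adjusted p = 0.0529, and 0.0717 with the replicate block too), over a range of 0.00866 to 1.

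Setting 10 mM glucose against acetate also tests whether the glucose and acetate differences are unequal. By that comparison 10 mM glucose lay above acetate by 1.79 ± 0.08 for BAMBI (adjusted p = 1.72e-10), 1.68 ± 0.11 for ID1 (7.42e-09) and 1.53 ± 0.11 for ID3 (2.03e-08). It lay above acetate by 1.11 ± 0.12 for SMAD6 (adjusted p = 1.15e-06) and 0.94 ± 0.11 for BMPR2 (3.01e-06), and below it for SMAD7 (−0.32 ± 0.06; adjusted p = 2.47e-04). For BMPR1A the value was 0.07 ± 0.08 (adjusted p = 0.433), so a difference between the 2 additions was not detectable there. All 3 comparisons share libraries in pairs and are not independent of each other.

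Reads of ID2 and of the antisense gene ID2-AS1, and of ID4 and the antisense gene AL022068.1, cannot be told apart without a strand setting, and BMPR1A has 2 pseudogenes that could take part of its reads.

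Counted over the 10 genes, 7 rose and 2 fell at 10 mM against 1 mM glucose, beside 67.5% of all genes called in that comparison (33.7% higher and 33.8% lower). With acetate 3 were called, all lower (ID2, ID4 and SMAD7), beside 13.7% of all genes called (6.65% higher and 7.09% lower), and ID2 is among these only as a description. At 10 mM glucose against acetate 8 were higher and 1, SMAD7, was lower, beside 62.8% of all genes called (31.0% higher and 31.8% lower). Here too ID2, among the 8, is counted only as a description. The median log2 fold change of the 10 was 0.79 for glucose and 0.04 for acetate, against 0.00 for all genes tested in each. Groups did not overlap for 9 of the 10 in the comparison for glucose (7 higher, 2 lower), beside 61.5% of all genes tested (31.1% higher and 30.3% lower). They did not overlap for 3 with acetate, all lower, beside 15.6% (7.35% higher and 8.20% lower). For 10 mM glucose against acetate they did not overlap for 9 (8 higher, 1 lower), beside 61.0% (30.8% higher and 30.1% lower). ID2 is in these last 2 counts only as a description.

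**Figure D4:**
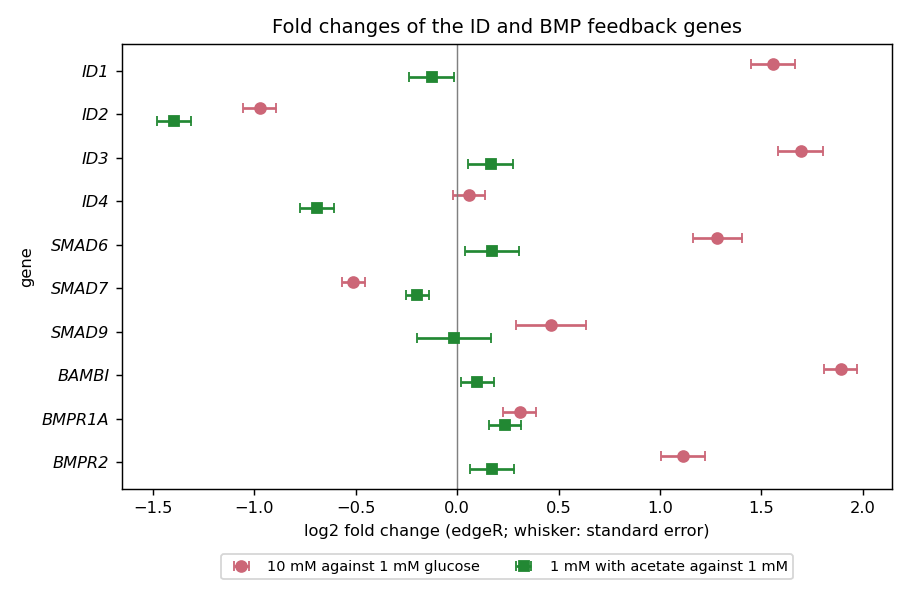
Log2 fold changes from edgeR (x axis) of the 10 genes (y axis), 10 mM against 1 mM glucose as circles and acetate against 1 mM glucose as squares, with standard errors as whiskers. BAMBI, ID3 and ID1 are farthest to the right for glucose, and ID2 is to the left in both comparisons, at −0.97 and −1.40.

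Across the 12 libraries ID1, ID3 and BAMBI moved together (Pearson's r of log2 CPM of 0.986 for ID1 with ID3, 0.988 for ID1 with BAMBI and 0.990 for ID3 with BAMBI). For ID2 with ID1 r was −0.17, and for ID2 with ID4 it was 0.66. These values describe 12 libraries that fall into the 3 groups, so the group differences enter every one of them, and no p is given. Among 11189 genes averaging at least 5 CPM, the genes most like ID1 by the same measure were TUBA1A (r = 0.996), KIF22 and CDCA3. Those most like ID3 were MARCKSL1 (r = 0.995), CALM3 and PAQR4, and TOB1 (r = 0.964) and GFPT2 were among those most like ID2. TOB1 averaged 20.1 CPM in the 1 mM group, 13.7 CPM in the acetate group and 15.4 CPM in the 10 mM group, the same order of groups as ID2.

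Ligand genes, which start the pathway, went both ways with glucose. Of 13 BMP ligand genes 5 passed the filter on low counts. With glucose 3 fell (BMP2, BMP6 and BMP8A) and 1 rose, and with acetate 3 fell, with medians of −0.54 and −0.28. BMP8A averaged only 1.07 CPM, and its groups overlapped (−0.54 ± 0.20; adjusted p = 0.0271). Beside this and each list below, 33.7% of all genes were called higher and 33.8% lower with glucose. For acetate these shares were 6.65% and 7.09%. BMP2 averaged 64.7 CPM at 1 mM glucose, 53.3 CPM with acetate and 14.8 CPM at 10 mM glucose, a difference for glucose of −2.13 ± 0.08 (adjusted p = 1.18e-11). BMP6 fell by 0.89 ± 0.08 with glucose (adjusted p = 1.75e-07), and BMP8B rose by 0.84 ± 0.07 (adjusted p = 6.04e-08), though reads shared with its close copy BMP8A could not be separated. BMP4 averaged 8.36, 6.39 and 8.70 CPM, and its difference for glucose was 0.06 ± 0.11 (adjusted p = 0.671). The acetate calls of these ligands were small: BMP2 had −0.28 (adjusted p = 0.0212), BMP6 −0.32 (adjusted p = 0.0167) and BMP4 −0.39 (adjusted p = 0.0392). Each ended when 1 library was left out: BMP2 without replicate 1 or 4 at 1 mM, or replicate 2 or 4 with acetate, BMP6 without 1 mM replicate 4 or acetate replicate 3 or 4, and BMP4 without any of 9 libraries, all but 1 mM replicate 2, acetate replicate 1 and 10 mM replicate 2.

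Of 8 further receptor and co-receptor genes 7 were tested, of which 3 rose and 2 fell with glucose and 1 fell with acetate (medians −0.00 and 0.01). The co-receptor RGMA averaged 2.11 CPM at 1 mM glucose, 2.03 CPM with acetate and 13.5 CPM at 10 mM glucose (log2 difference for glucose 2.67 ± 0.10; adjusted p = 1.33e-11), while its relative RGMB fell by 1.35 ± 0.06 (adjusted p = 7.2e-11). The type I receptor ACVR1 fell by 0.78 ± 0.05 with glucose (adjusted p = 1.59e-09), and the type II receptor ACVR2B rose by 0.54 ± 0.09 (adjusted p = 1.24e-04). ACVR1 also passed with acetate (−0.15, adjusted p = 0.0355), a call that ended without any of 9 libraries, all but 1 mM replicates 1 and 3 and acetate replicate 1, and with the replicate number as a block (adjusted p = 0.0614).

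Secreted antagonists, which bind BMPs outside the cell, went both ways: of 9 tested from 12, 4 rose and 4 fell with glucose, and 3 rose and 1 fell with acetate (medians 0.32 and 0.04). CHRDL1 rose in both, from 43.5 CPM to 68.3 CPM with acetate (0.65 ± 0.07; adjusted p = 4.71e-05) and to 79.3 CPM at 10 mM glucose (0.87 ± 0.07; adjusted p = 3.51e-08). FST fell by 1.33 ± 0.06 with glucose (adjusted p = 8.59e-11), and FSTL1 rose by 0.76 ± 0.05 (adjusted p = 5.29e-09). NOG, which encodes noggin, was low throughout. Its mean was 1.44 CPM in the 1 mM group, 0.818 CPM in the acetate group and 0.211 CPM in the 10 mM group, and it fell with glucose (−2.74 ± 0.27; adjusted p = 3.98e-07) and with acetate (−0.81 ± 0.20; adjusted p = 0.0168). The acetate calls of FSTL1 (0.18, adjusted p = 0.0284) and NOG ended when 1 library was left out. For NOG this was acetate replicate 2, and for FSTL1 it was replicate 1 or 4 at 1 mM, or replicate 2 or 4 with acetate.

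The SMADs that carry the signal had log2 differences for glucose between −0.53 and 0.62. Of 5, 2 rose and 2 fell with glucose, and for acetate their adjusted p lay between 0.091 and 0.804. SMAD5 rose by 0.62 ± 0.09 (adjusted p = 2.06e-05) and SMAD2, of the TGF-beta arm, fell by 0.53 ± 0.05 (adjusted p = 1.04e-07). SMAD1 had −0.17 ± 0.06 (adjusted p = 0.0272), lost without 1 mM replicate 2 or 10 mM replicate 1 or 2, and the shared partner SMAD4 had 0.11 ± 0.05 (adjusted p = 0.0489), lost without any of 10 libraries (all but 1 mM replicate 2 and acetate replicate 1) and −0.06 with the length and GC trend taken out. Ubiquitin ligases and nuclear repressors of SMADs were split with glucose, 5 higher and 5 lower of 10, and for acetate their adjusted p lay between 0.0503 and 0.917 (medians −0.01 and −0.04). SMURF2, a ligase that SMAD7 recruits, fell by 1.26 ± 0.07 (adjusted p = 7.36e-10), TGIF1 by 1.00 ± 0.08 and NEDD4L by 0.77 ± 0.06, while SKI rose by 0.60 ± 0.06 (adjusted p = 1.23e-06).

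Of 10 other genes often linked to BMP signalling, 2 rose and 6 fell with glucose (33.7% and 33.8% of all genes). With acetate 1 rose and 6 fell (6.65% and 7.09% of all genes). The medians were −0.55 for glucose and −0.36 for acetate. ATOH8, a helix-loop-helix factor and BMP target, rose from 4.76 CPM to 42.2 CPM at 10 mM glucose (3.14 ± 0.13; adjusted p = 2.68e-11), 11th from the highest of all genes tested, and also rose with acetate (7.94 CPM; 0.73 ± 0.14; adjusted p = 0.00301). HEY1, a Notch and BMP target, fell in both, by 1.65 ± 0.05 with glucose (adjusted p = 2.39e-12) and by 0.40 ± 0.05 with acetate (adjusted p = 1.71e-04). MSX1, a homeobox target, fell by 1.35 ± 0.11 and by 0.96 ± 0.11 (adjusted p = 8.71e-08 and 9.49e-05), and GATA3 fell by 1.74 ± 0.07 with glucose (adjusted p = 1.65e-11). In the TGF-beta and activin arm 4 of 11 tested rose and 2 fell with glucose, and 1 rose with acetate. TGFB2 fell by 1.64 ± 0.07, while the co-receptor TGFBR3 rose by 1.75 ± 0.10 and PMEPA1, a feedback inhibitor, by 0.47 ± 0.05 with glucose and 0.37 ± 0.05 with acetate (adjusted p = 5.05e-04).

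Of the E proteins and other partners of ID proteins 6 of 8 were tested, of which 3 rose and 2 fell with glucose and 1 rose and 1 fell with acetate. TCF4 averaged 30.5 CPM at 1 mM glucose, 45.8 CPM with acetate and 107 CPM at 10 mM glucose, and it rose by 1.81 ± 0.10 with glucose (adjusted p = 7.62e-10) and by 0.59 ± 0.10 with acetate (adjusted p = 0.00146). TCF3 rose by 0.48 ± 0.07 with glucose (adjusted p = 1.28e-05), and TCF12 had 0.12 ± 0.08 (adjusted p = 0.19). ETS1 fell by 1.37 ± 0.09 with glucose and ETS2 fell by 0.49 ± 0.05 with glucose and by 0.42 ± 0.05 with acetate. Of 5 neuron markers 4 were tested, and they went both ways: at 10 mM glucose SYT1 fell by 2.10 ± 0.09 and SNAP25 rose by 0.88 ± 0.06 (adjusted p = 1.39e-08), while MAP2 had 0.26 ± 0.12 (adjusted p = 0.078) and TUBB3 −0.02 ± 0.10 (adjusted p = 0.847). With acetate SNAP25 rose by 0.30 ± 0.06 (adjusted p = 0.00686). The immune marker CD68 fell by 1.52 ± 0.08 at 10 mM glucose. The summed level of the 5 neuron markers ran from 421 to 470 CPM at 1 mM glucose, from 365 to 385 CPM with acetate and from 352 to 388 CPM at 10 mM glucose, and that of the 4 immune markers from 54.6 to 64.9, 62.2 to 69.0 and 18.2 to 22.2 CPM; their part in the results was not tested.

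**Figure D5:**
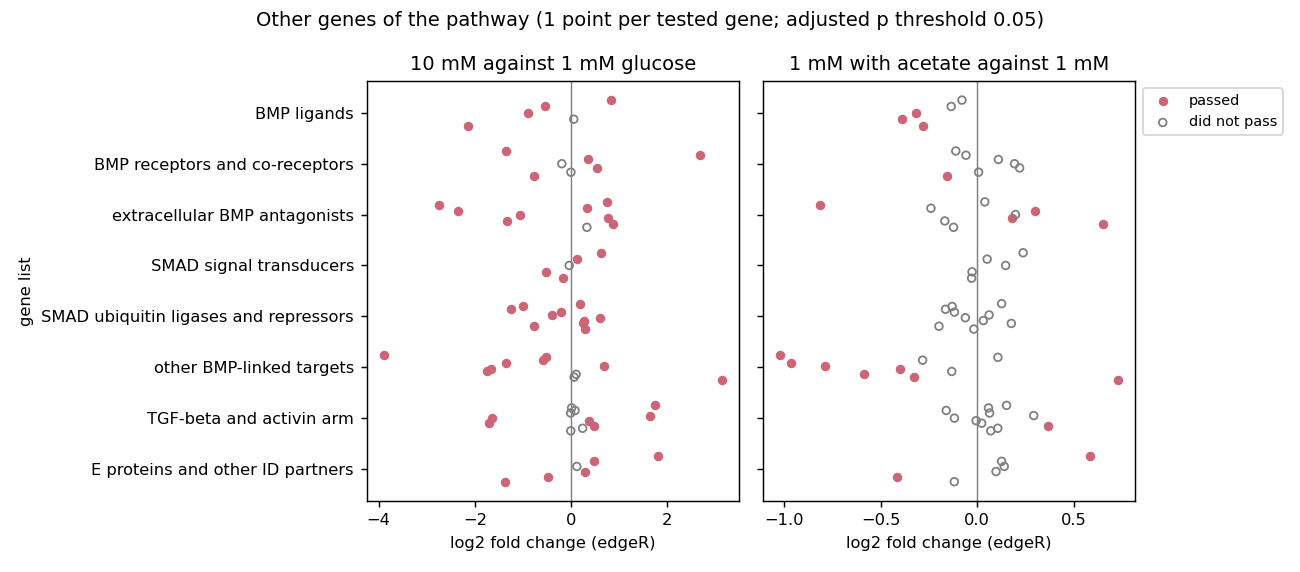
Log2 fold changes from edgeR (x axis) of the tested genes of 8 lists (y axis), 1 point per gene, filled where the adjusted p was under 0.05; left, 10 mM against 1 mM glucose, right, acetate against 1 mM glucose, on a narrower axis. In the left panel the ligands have 3 filled points below 0 and 1 above, the other BMP-linked targets 6 and 2, and the SMAD ligases and repressors 5 and 5.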

How the data were processed

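RNA was sequenced from 12 LN229 libraries, 4 per group. The authors deposited raw counts per RefSeq transcript, as whole numbers with no normalization, in tables of 34917 rows. The build was hg19, per the submitters' processing notes, and the sources used here name no aligner, counting program or strand setting. The transcript that the authors marked stood for its gene (20895 genes), and the one with the highest total for the other 1362, among them ID1, ID2 and ID4. The marked transcript had the highest total in 96.9% of genes. Library totals were then between 24.4 M and 27.2 M counts, and the common biological coefficient of variation was 8.51%.

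All 12 libraries were fitted together, with 1 mean per group, by quasi-likelihood in edgeR 4.0.16 under R 4.3.3. Genes were kept by filterByExpr and libraries scaled by TMM. Adjusted p-values are Benjamini-Hochberg over 14416 genes with a threshold of 0.05. SE is the fold change over the square root of F. The fit was also run on 5 simulated sets of counts, with 200 genes changed in the acetate comparison. It recovered 49.4% of 1.25-fold and 100% of 1.5-fold changes, and 4.5% of its calls were false. The simulated libraries had the same spread for every gene and no length trend, so these figures do not carry over to the real libraries. Alternatives used limma 3.58.1 and DESeq2 1.42.0, other scalings and filters, the replicate number as a block, removal of length and GC trends, and left-out libraries. The 10 genes, the other lists, and the lists' markers were chosen with earlier results of these data known. The text names all 10 genes, up to 4 called genes per list with the smallest adjusted p and at least 5 CPM on average, ATOH8, SMAD1, SMAD5, SMAD4, BMP4, NOG, TCF3, TCF4 and TCF12 throughout, and the 3 genes most like ID1, ID2 and ID3. Some genes that the rule names are not reported here. Other list genes the text names, such as VIM, GFAP, MAP2 and VWF, are outside it and were added once their values had been seen. Deviations from the group means of same-numbered libraries at 1 mM and 10 mM glucose correlated at 0.23 to 0.57 in all 4 pairs. Libraries with different numbers were not compared in this way. These values therefore cannot tell whether the numbers pair the libraries, and the labels do not say so. The pairs with acetate did not all correlate. Promoter sequences came from RefSeq (GRCh38.p14), with all 10 genes matched.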

Additional observations from a re-analysis of the deposited data

Results flagged for a closer look

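ID3 at 10 mM glucose in replicate 3 stood apart from the other 3 libraries of its group, at 138 CPM against 125 to 126 CPM. The gap to its nearest neighbour was 0.914 of the range of the group; Dixon's critical value at 95% lies below this. It was 1 of 30 groups checked (10 genes in 3 groups), and a test at 95% marks some groups by chance. Without that library the difference of ID3 for glucose was 1.66, against 1.69 with all 12 libraries. Over all libraries left out 1 at a time it ran from 1.60 to 1.82.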

How the results depend on the processing

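In all 25 alternatives (12 that leave out 1 library and 13 others) the differences for glucose of ID1 (1.49 to 1.73), ID2 (−1.04 to −0.77), ID3 (1.60 to 1.86), BAMBI (1.84 to 2.03) and BMPR2 (0.92 at the lowest) kept their direction and call, as did SMAD6 (1.24 to 1.42) in the 24 that kept it above the filter. Of the 10 genes, under a test for at least a 1.5-fold change 6 were called for glucose, 1 for acetate and 5 for 10 mM glucose against acetate (19.9%, 0.18% and 14.6% of all genes). The 1 for acetate was ID2. In this section ID2 enters any count for acetate, or for 10 mM glucose against acetate, only as a description. Its glucose call shares the 1 mM libraries with the acetate difference for which it was known. That 1.5-fold test also ended the acetate calls of ATOH8, CHRDL1, HEY1, MSX1, TCF4, ETS2, PMEPA1, SOX2, S100B, OLIG2 and SNAP25. Glucose calls of SMAD5, SMAD2, SKI, TCF3, ACVR2B, PMEPA1 and ETS2 ended under it too. Of the 10 genes, 7 were called for glucose with trends removed (73% of all genes) and 10 with library totals (68.3%). Leaving out 1 mM replicate 3 and acetate replicate 1 gave 6 calls for acetate in place of 3, beside 25.8% of all genes. With 1 library left out the counts ran from 8 to 9 for glucose, 2 to 4 for acetate and 8 to 9 for 10 mM glucose against acetate, beside 62.8 to 70.2%, 8.24 to 20.4% and 58.2 to 66.5% of all genes.

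Several small values changed sign, and the cause was not tested. For acetate, ID1 ran from −0.20 to 0.024 with 1 library left out, above 0 without 1 mM replicate 3. SMAD9 ran from −0.11 to 0.15, above 0 without 1 mM replicate 2 (0.028) or acetate replicate 3 (0.15), and was 0.022 with library totals. With length and GC trends removed BMPR1A became −0.0399 at 10 mM glucose against acetate, and −0.0397 with the replicate block too, and SMAD4 lost its call for glucose at −0.0628, and −0.0616 with the block too.

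The share of all genes called for acetate was 13.7%, and it was 7.45% with only the 8 libraries compared, 8.6% with no filter and 27.4% with trends removed. Library totals made 63.3% of glucose calls higher, against 49.9%, and 65.2% of acetate calls, against 48.4%. The replicate block gave 9 calls for glucose, 3 for acetate and 9 for 10 mM glucose against acetate (66.7%, 12.3% and 61.7% of all genes). Alone it changed no call of the 10 genes. Among glucose and acetate calls of the other genes named by the rule it ended only that of ACVR1 for acetate. Calls of genes outside the rule, such as VIM, EGFR, BMP8A and VWF, were not run under any alternative. Correlations of the acetate pairs ran from −0.60 to 0.34, and the labels give same-numbered samples only a shared number. SMAD9 and SMAD6 are limited by depth, with few counts per library.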
